A study of Mus musculus with 12 samples.

Results

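The Hox genes of lumbar motor neurons were measured across a series of TDP-43 Q331K mice. Members were all table entries named Hoxa, Hoxb, Hoxc or Hoxd with a paralog number, which gave 39 of 25965 entries: 11 in cluster A, 10 in cluster B, 9 in cluster C and 9 in cluster D. The rule used names alone and no measured value, although it was set with earlier results of these data known. The RNA was that of laser-captured lower motor neurons, taken at lumbar level from C57BL/6 animals aged 5 months. Wild-type (+/+), heterozygous (Q331K/+) and homozygous (Q331K/Q331K) mice gave 4 libraries each, 12 in all. Q331K is an amino acid change in TDP-43, an RNA-binding protein, and was placed in the mouse's own gene by knock-in, so no transgene promoter or Cre line is involved. The wild-type mice are of the same strain and age, and the labels name no other allele or agent. Sex, the number of animals and the match of libraries to animals are not given in the labels, so a p-value here reflects the spread between libraries, which may be technical. Counts per gene do not show the Q331K change itself.

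Hox genes encode homeodomain transcription factors that sit in 4 clusters in the mouse and give cells their place along the head-to-tail axis. Within a cluster, genes with low paralog numbers are used from the hindbrain down and genes with high numbers only towards the tail. In spinal motor neurons, Hox5 proteins act in the phrenic column of the neck, Hoxc6 and Hoxc8 at forelimb levels, Hoxc9 at thoracic levels and the Hox10 group at hindlimb (lumbar) levels, where they help to form the limb-innervating lateral motor column.

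The clusters also carry microRNA genes, and RefSeq lists the mature sequences at GRCm38.p6. They are shown because 2 seed families cover the miR-10 and miR-196 genes of the clusters, and because miR-196 target letters lie in several members described below, steady and variable alike. Capitals mark the seed, bases 2 to 8.
miR-10a-5p, from cluster B at chr11:96317186-96317208 on the plus strand: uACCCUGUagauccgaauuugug
miR-10b-5p, from cluster D at chr2:74726074-74726096 on the plus strand: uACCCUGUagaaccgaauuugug
miR-196a-5p, from cluster B at chr11:96265187-96265208 and cluster C at chr15:102973365-102973386, both plus strand: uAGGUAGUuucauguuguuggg
miR-196b-5p, from cluster A at chr6:52230129-52230150 on the minus strand: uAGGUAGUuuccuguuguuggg
Mature microRNAs were not measured, because the libraries were made from polyA RNA. The precursor entries held 2 counts in all for Mir10a, 9 for Mir196a-1 and 0 for Mir196a-2.

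The miR-196 seed match, ACTACCT in DNA letters, was searched on the transcript strand in 1 annotated 3′ UTR per gene (GENCODE M21). It was found in 8 of 39 Hox genes (20.5%) and in 1150 of 20758 genes (5.54%). The miR-10 match, ACAGGGT, was found in 4 of 39 Hox genes (10.3%) and in 2316 of 20758 genes (11.2%). The 8 Hox genes with the miR-196 match were Hoxa4, Hoxa5, Hoxa7, Hoxa9, Hoxb1, Hoxb6, Hoxb7 and Hoxc8. Hoxb8 lacked the perfect seed match but held a window that paired with miR-196a at 21 of 22 bases, and it was the only 1 of 20758 genes with a window of 21 or more. The best window among the other Hox genes was that of Hoxd8, with 15 of 22 bases, a level that 828 genes reached. The windows of the members described at length below follow, with the bases facing the seed in capitals. A match is a description of letters and not evidence of regulation.
Hoxb8, 21 of 22 bases paired: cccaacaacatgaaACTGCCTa
Hoxa9, 14 of 22 bases paired: caaaaggaaagaaaACTACCTt
Hoxb7, 14 of 22 bases paired: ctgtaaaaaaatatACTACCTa
Hoxc8, the first of its matches, 12 of 22 bases paired: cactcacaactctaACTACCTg

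Total counts per library ran from 60886825 to 83504446, and 28 of 39 members passed the filter on low counts and were tested among 16338 genes. Levels are given as CPM, counts scaled to a common library total with TMM factors (parts per 1000000), and as CPM per kb, the CPM divided by the exon length of the gene. A library with 0 counts allows up to 3 counts, which is 0.0356 to 0.0480 CPM, a limit for counting error only since the libraries had no molecular identifiers. Counts were made from unstranded libraries, and 26 members overlapped another table entry. Exon bases shared with another entry were found for Hoxa3, Hoxb2, Hoxb3, Hoxd3 and Hoxd4, whose values are therefore uncertain. Shared bases were not computed for every overlapping entry, so other members may share exon bases too. Genes of GENCODE M21 covered 20.4% of the exon bases of Hoxa7, 10.8% of those of Hoxd11 and 8.7% of those of Hoxc10. For other members, such as Hoxa5 and Hoxc8, this share was 0%. The counts of Hoxb3os, an antisense entry, were 94.3% to 105% of those of Hoxb2 in every library, so reads of this pair cannot be told apart. In these bulk samples, fewer cells of a type and less RNA per cell also cannot be told apart.

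Heterozygous library 1 and homozygous library 1 stood apart from the other 10 libraries and are given separately in what follows. The summed level of 8 inhibitory interneuron markers was 21.0 and 19.4 CPM in this pair and 197 to 472 CPM in the other 10. For 7 excitatory interneuron markers the sums were 0.563 and 4.68 CPM against 175 to 330.95 CPM, with Lmx1b, Tlx3, Lbx1 and Tac1 at 0 counts in both libraries. The sum of 13 motor neuron markers was 12639 and 12416 CPM against 5252 to 9741 CPM. Nefh was its largest part, with 6832 and 6946 CPM in the pair. Chat, Slc5a7, Mnx1, Isl2, Prph, Nefh and Chodl exceeded the other 10 in both libraries, and Ache in heterozygous library 1 only. Isl1, Ret and Gfra1 stayed within the range of the other 10. Esrrg was lowest in the pair, with 41.0 and 43.8 CPM, while every other library held at least 44.7 CPM. Esrrb fell short of the other 10 in homozygous library 1 only. Of 8 astrocyte markers, Aldoc alone was below the other 10 in both libraries of the pair (467 and 511 CPM, with 791 to 1281 CPM elsewhere), while the other 7 summed to 96.1 and 132 CPM, within the 81.7 to 275 CPM of the other 10. All 13 motor neuron markers in the table were detected in every library, which does not show how pure the captures were. The other 10 libraries held interneuron markers beside those of motor neurons.

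The Hox profile had its upper end in paralog groups 8 to 10. Group 11 had few or 0 counts, except for Hoxd11 in heterozygous library 1 (12.6 CPM). All 10 members of groups 8 to 10 passed the filter, and so did 18 of 20 members of groups 1 to 7. None of the 9 members of groups 11 to 13 did. Of the 6 members of groups 12 and 13, 5 had 0 counts in all 12 libraries: Hoxa13, Hoxb13, Hoxc12, Hoxc13 and Hoxd12. The sixth, Hoxd13, had 40 counts in wild-type library 3 (0.594 CPM) and 0 elsewhere. The other member at 0 in every library was Hoxb1, a hindbrain gene. Among 18 homeobox and forkhead genes that pattern the brain in front of the Hox domain, 10 were at 0 in all 12 libraries, among them Otx2 and Six3.

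**Figure D1:**
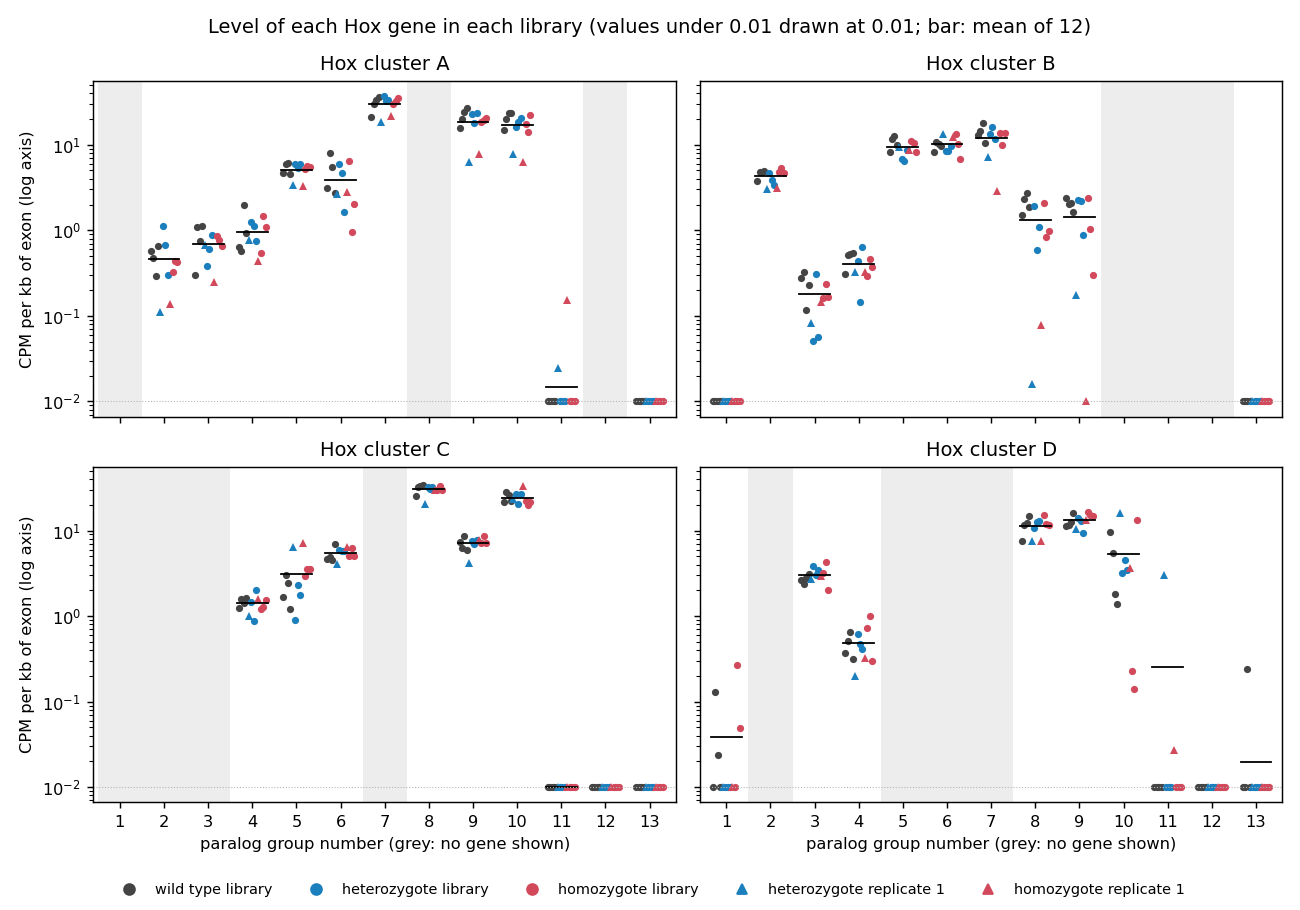
Level of 38 Hox genes in each library, in CPM per kb of exon on a log axis, against paralog number in 4 panels by cluster. Points are libraries coloured by genotype, triangles are heterozygous and homozygous library 1, horizontal bars are means of 12, and values under 0.01 are drawn at 0.01. The highest levels lie in groups 7 to 10, and from group 11 on libraries lie at the floor except a few for Hoxa11, Hoxd11 and Hoxd13.

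Per length, Hoxc8 and Hoxa7 had the highest mean levels over the 12 libraries, at 30.2 and 30.1 CPM per kb. They were followed by Hoxc10 at 24.3, Hoxa9 at 18.6 and Hoxa10 at 17.0 CPM per kb. Hoxd9, Hoxb7, Hoxd8 and Hoxb6 came next, between 10.1 and 13.2 CPM per kb. Neighbours in this order had ranges over libraries that overlapped. In the wild type, groups 8 to 11 held 59.4% ± 1.73 (SD, n = 4) of the summed Hox level per kb, against 58.4% ± 1.22 in heterozygotes and 58.5% ± 2.02 in homozygotes. The group 10 genes alone held 21.4% ± 2.11 in the wild type. Groups 7, 8 and 9 held 19.0% ± 0.987, 19.2% ± 1.21 and 18.8% ± 1.68 there. In CPM with no division by length, group 9 held the most, at 26.1%, and group 10 held 18.8%. Groups 2 to 4, whose domains begin in the hindbrain and neck, held between 1.46% and 2.19% each on average in the wild type.

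Among genes of the Hox10 group, Hoxc10 was the steadiest and Hoxd10 the most variable. Hoxc10 (chr15:102966796-102971893, plus strand, GRCm38) stood at 41.3, 53.5, 49.1 and 41.9 CPM in wild-type libraries 1 to 4. Its level was 45.1, 50.6, 38.9 and 51.7 CPM in the heterozygous libraries and 64.1, 42.2, 38.4 and 40.9 CPM in the homozygous ones. The groups overlapped, and homozygous library 1 was the highest of all 12.

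Hoxa10 (chr6:52231197-52240854, minus strand) is a lumbar gene that works with Hoxd10 in mouse hindlimb innervation. Its wild-type values were 48.5, 65.0, 76.5 and 77.0 CPM. Heterozygous libraries gave 25.2, 52.2, 59.5 and 66.6 CPM, and homozygous ones 20.4, 57.1, 46.6 and 73.4 CPM. The lowest value of both mutant groups was that of library 1, and the other 10 libraries lay between 46.6 and 77.0 CPM. The ratio of Hoxa10 to Hoxc10 in CPM was 0.558 and 0.319 in the pair and 1.03 to 1.84 in the other 10.

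Hoxd10 (chr2:74691090-74695106, plus strand) spanned a 113-fold range over the 12 libraries. Wild-type libraries 1 to 4 held 17.6, 10.0, 3.27 and 2.51 CPM, from 1330, 628, 220 and 211 counts. In the heterozygous libraries it was 28.9, 5.77, 8.30 and 6.26 CPM, and in the homozygous ones 6.71, 0.418, 0.255 and 24.4 CPM. High and low libraries occurred in each genotype, and all 3 groups overlapped. The coefficient of variation (CV, the SD as a share of the mean) of Hoxd10 over the 12 libraries was 97.6%, against 16.3% for Hoxc10. Unlike Hoxa10, it varied as much without the pair, with a CV of 98.5% over the other 10. Gm20440, an entry of the same strand whose span overlaps both Hoxd10 and Hoxd11, ranged from 0.0160 to 10.5 CPM, so reads of these 3 entries may be mixed.

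Hoxd11, a gene of caudal lumbar and sacral levels, was detected in quantity in a single library. It had 896 counts (12.6 CPM) in heterozygous library 1, 8 counts in homozygous library 1, 1 count in homozygous library 2 and 0 in the other 9. The library with Hoxd11 also had the highest Hoxd10 of the 12, whereas homozygous library 4, next in Hoxd10, had no Hoxd11 counts. Hoxa11 had 4 counts in heterozygous library 1 and 24 in homozygous library 1 and none elsewhere. Its antisense partner Hoxa11as had 39 and 40 counts in the same libraries and none elsewhere, and 34.98% of the exon bases of Hoxa11 overlap another annotated gene. Hoxc11 had 1 count, in heterozygous library 1. That library alone had counts of Hotair, the antisense RNA of the HoxC cluster, with 71 (1.00 CPM). Group 11 members were thus seen almost only in the libraries nearly free of interneuron markers, and the part of that difference in the result was not tested.

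**Figure D2:**
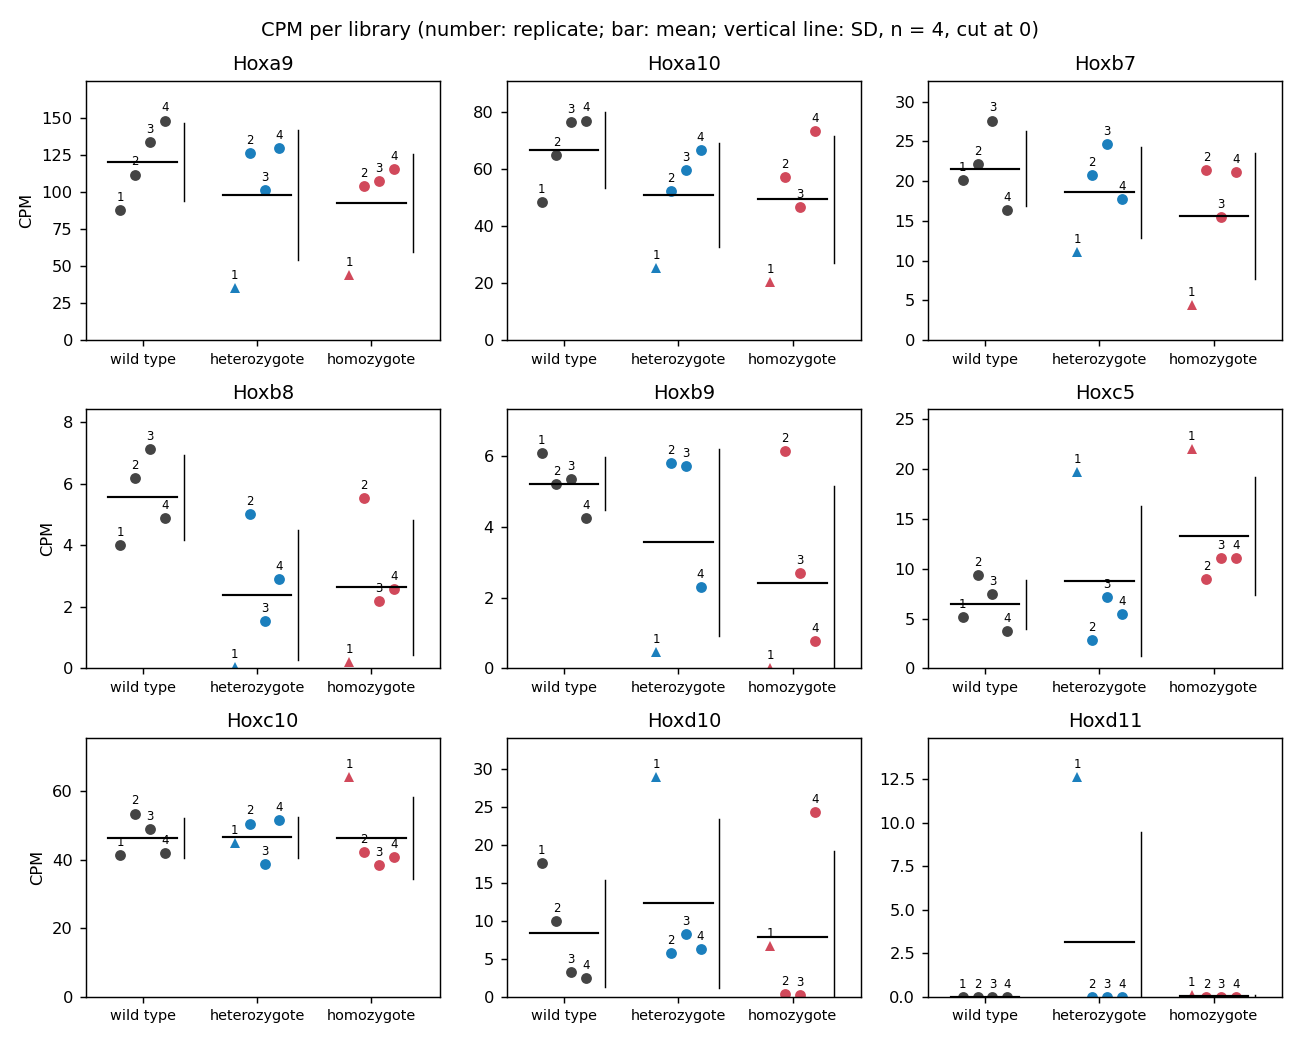
CPM of 9 Hox genes in each library by genotype. Numbers are replicates, triangles are heterozygous and homozygous library 1, horizontal bars are means and vertical lines are 1 SD (n = 4), not drawn below 0. Hoxa9, Hoxa10, Hoxb7, Hoxb8 and Hoxb9 are lowest in the 2 libraries drawn as triangles, Hoxc5 is highest in them, and Hoxd10 varies in every genotype.

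In the pair of libraries nearly free of interneuron markers, Hox levels lay both below and above those of the others. Of the 28 tested, 8 fell short of the lowest of the other 10 libraries in both: Hoxa2, Hoxa5, Hoxa9, Hoxa10, Hoxb2, Hoxb7, Hoxb8 and Hoxb9. That is to be read against 10.6% of the 16338 genes tested (1726), and the pair was recognised from marker genes and not from Hox levels. Hoxc5 alone was above that range in both, against 10.3% of all genes tested (1677). Another 5 were below it in heterozygous library 1 only (Hoxa7, Hoxc6, Hoxc8, Hoxc9 and Hoxd4) and 2 in homozygous library 1 only (Hoxa3 and Hoxa4). Hoxb6 and Hoxd10 were above it in the heterozygous library and Hoxc10 in the homozygous one. The remaining 9 lay within the range in both. These counts describe single libraries, and no test was made.

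Hoxb8 was the member furthest below the other 10 in heterozygous library 1. Its product acts in the dorsal spinal cord among other places, and the gene lies at chr11:96281905-96285325 on the plus strand. The wild-type libraries held 4.01, 6.19, 7.13 and 4.88 CPM. Heterozygous libraries 1 to 4 held 0.0422, 5.01, 1.53 and 2.91 CPM, the first from 3 counts, and homozygous ones 0.203, 5.54, 2.20 and 2.58 CPM. Libraries 3 and 4 of both mutant groups also lay below the wild-type range. Heterozygous and homozygous library 1 were at 0.00950 and 0.0457 times the median of the other 10, and the span over all 12 was 169-fold. Hoxb6, which lies beyond Hoxb7 in the same cluster, was at 1.38 and 1.27 times its own median of the other 10. The ratio of Hoxb8 to Hoxb6 in CPM was 0.00162 and 0.00848 in the pair and 0.0919 to 0.352 elsewhere.

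The 120 bases before the annotated start of Hoxb8 in RefSeq (GRCm38.p6) are shown because Hoxb8 was far lower in both libraries and its start is the one in the count table. Capitals mark letters of the motif TATAAA, of the motif CCAAT and of the motif TGATNNAT on either strand, the last a short form of sites bound by Hox and Pbx proteins together.
Hoxb8 upstream, chr11:96281785-96281904, plus strand: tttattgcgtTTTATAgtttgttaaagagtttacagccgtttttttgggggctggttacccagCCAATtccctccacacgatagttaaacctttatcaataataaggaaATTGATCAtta
The matches began at -110, -57 and -11 from the start and did not overlap each other. RefSeq gave 24 promoters for 22 of the 39 members. Within 250 bases before the start, CCAAT was in 58.3% of these 24 and in 33.8% of 32851 promoters of all genes. TATAAA was in 16.7% against 12.4%, and TGATNNAT in 16.7% against 7.68%. Besides Hoxb8, TGATNNAT was found for Hoxa2, Hoxb1 and Hoxd11.

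Hoxb9 and Hoxb7, the neighbours of Hoxb8 on either side, were also low in the pair. Hoxb9 was 6.08, 5.199, 5.35 and 4.24 CPM in the wild type, 0.451, 5.79, 5.71 and 2.29 CPM in heterozygotes and 0, 6.15, 2.68 and 0.763 CPM in homozygotes. With 0 counts in homozygous library 1, it was at least 121-fold lower there than the median of the other 10. Hoxb7, 1 of the members with the miR-196 seed match, was 20.2, 22.2, 27.6 and 16.3 CPM in the wild type. It was 11.1, 20.8, 24.7 and 17.8 CPM in heterozygotes and 4.41, 21.4, 15.5 and 21.2 CPM in homozygotes. Library 1 was lowest in both mutant groups for these genes, but low values were not limited to it. Heterozygous library 4 and homozygous libraries 3 and 4 also lay below the wild-type range of Hoxb9, and homozygous library 3 below that of Hoxb7.

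Hoxa9, a thoracic to lumbar gene, was 87.5, 112, 134 and 148 CPM in the wild type. In heterozygotes it was 34.8, 126, 101 and 129.5 CPM and in homozygotes 43.7, 104, 107 and 115 CPM. Both mutant library 1 values were far below the lowest of the other 10, which was 87.5 CPM. Hoxa5, Hoxb2 and Hoxa2, genes of neck and hindbrain levels, were at 0.242 to 0.653 times the median of the other 10 in the pair. The shares of clusters A and C also differed in the pair. Cluster A held 28.7% and 28.8% of the summed Hox CPM in the pair and 40.8% to 49.3% elsewhere. Cluster C held 32.7% and 43.4% against 24.9% to 29.1%. The summed level of cluster C did not rise in both. It was 146 CPM in heterozygous library 1 and 209 CPM in homozygous library 1. The other 10 libraries held 151 to 186 CPM, so the first was below them and the second above. Cluster D held 21.7% in heterozygous library 1 and 14.3% in homozygous library 1, with at most 14.8% elsewhere. The interneuron and motor neuron marker sums and Aldoc, given above, move with the low Hox genes and the shares of clusters A and C. The part of these markers in the result was not tested. Summed over all 39 genes, the level was 445 and 482 CPM in the pair and 522 to 709 CPM elsewhere.

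Hoxc5, which with Hoxa5 acts in phrenic motor neurons in the mouse, went the other way. It was 5.18, 9.36, 7.44 and 3.71 CPM in the wild type, 19.8, 2.81, 7.19 and 5.43 CPM in heterozygotes and 22.0, 9.01, 11.1 and 11.1 CPM in homozygotes. The pair reached 2.70 and 3.01 times the median of the other 10. Its ratio to the neighbouring Hoxc4 was 7.75 and 5.44 in the pair and 0.759 to 3.35 elsewhere. Gm20398, an entry of the same strand that spans Hoxc5 to Hoxc10, was 13.8 and 18.3 CPM in the pair and 7.52 to 12.3 CPM elsewhere.

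**Figure D3:**
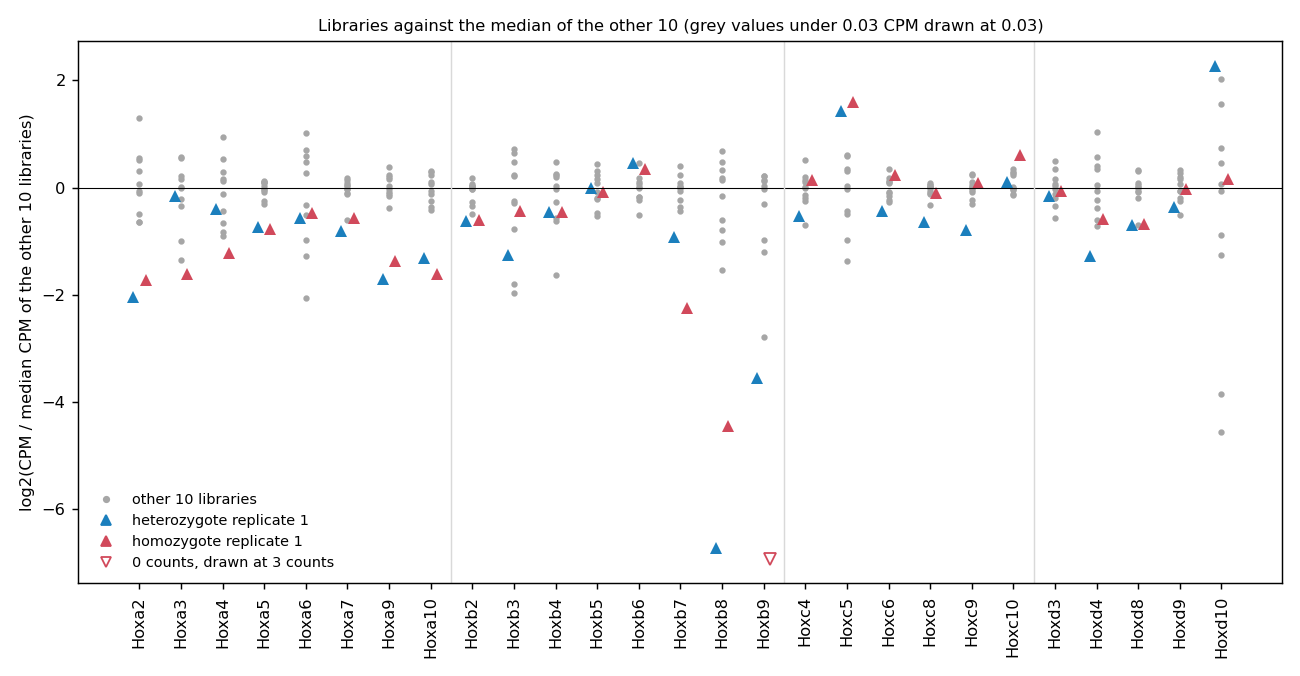
Level of 27 tested Hox genes in each library relative to the median of the 10 libraries other than heterozygous and homozygous library 1, as a log2 ratio of CPM, ordered by cluster and paralog number. Blue and red triangles are those 2 libraries, grey points are the other 10, and the open triangle is a count of 0 drawn at 3 counts. Hoxb8 and Hoxb9 lie lowest and Hoxc5 lies above the grey points in both.

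Other highly expressed members varied less. Hoxc8, which acts in forelimb motor pools, was 71.9, 90.7, 93.9 and 95.5 CPM in the wild type, 58.4, 91.6, 86.8 and 90.4 CPM in heterozygotes and 84.8, 83.7, 93.6 and 84.9 CPM in homozygotes. Its CV of 12.5% was the lowest of the 28. Hoxa7, a gene of thoracic levels, was 61.4, 87.1, 95.3 and 104 CPM in the wild type, 53.3, 106, 92.2 and 97.0 CPM in heterozygotes and 62.9, 86.1, 92.2 and 99.9 CPM in homozygotes. The lowest library of each genotype was its library 1, for both of these genes except Hoxc8 in homozygotes. Over the 28 genes the median CV was 33.1%, against 26.2% over all 16338 genes tested. The other tested members reported are given by their range over the 12 libraries. Hoxd8 lay between 20.4 and 41.8 CPM, Hoxb6 between 13.3 and 26.1 CPM, Hoxc6 between 9.66 and 16.6 CPM and Hoxa5 between 6.12 and 11.4 CPM. Hoxc4, Hoxa3, Hoxa4, Hoxd4, Hoxb4 and Hoxa2, all of the anterior end of the clusters, did not exceed 6.77 CPM in any library. Hoxd1 was not tested, with 0 to 31 counts per library. A CV under 25% was found for 13 of the 28 and for 48.0% of all genes, and a CV over 50% for 8 of the 28 and for 26.6% of all genes.

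No Hox gene passed the test for a difference between genotypes. By edgeR's quasi-likelihood test with Benjamini-Hochberg adjustment over 16338 genes, 0 of the 28 tested members passed an adjusted p of 0.05 between homozygotes and wild type, where 0.00612% of all genes did (1 gene). The count was also 0 between heterozygotes and wild type, between homozygotes and heterozygotes, and for any genotype difference, and there 0% of all genes passed. At an unadjusted p under 0.05, 0 Hox genes passed between homozygotes and wild type (4.82% of all genes), 1 between heterozygotes and wild type (4.1%) and 1 between homozygotes and heterozygotes (2.97%). For any genotype difference the number was 0 (3.59%). DESeq2 and limma-voom also called 0 members in each of them, with 1 to 3 at an unadjusted p under 0.05 in each comparison of a pair of genotypes. Over all 16338 genes, DESeq2 called 13, 9, 3 and 5 in the order above, and limma-voom 1, 0, 0 and 0. For the pairs of genotypes, DESeq2 had 939, 796 and 578 of all genes at an unadjusted p under 0.05. The numbers in limma-voom were 1185, 1066 and 695. No member had groups that did not overlap in any comparison, which 3.41%, 3.24% and 2.03% of all genes did in the order given.

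Between homozygotes and wild type, 9 of the 28 were higher and 19 lower, none past the test, with a median log2 difference of -0.07 beside 0.00 for all genes. Without heterozygous and homozygous library 1 the split was 14 and 14 and the median 0.00. Between heterozygotes and wild type the split was also 9 and 19 with a median of -0.11, and 12 and 16 with -0.02 without the pair. Homozygotes against heterozygotes gave 13 higher and 15 lower with a median of -0.01. This split turned to 20 and 8 without heterozygous library 4 (median 0.12) or homozygous library 1 (0.10) and to 19 and 9 without heterozygous library 2 (0.05). Heterozygotes against wild type gave 5 higher and 23 lower without wild-type library 1 or heterozygous library 2. The first and second comparisons share the wild-type libraries.

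Between homozygotes and wild type the smallest unadjusted p was that of Hoxc5. Its log2 difference was 1.05 (SE 0.53, 95% interval -0.10 to 2.20, edgeR adjusted p = 0.986), or 0.70 without the pair and 0.40 with genes detected per library as a covariate. Next came Hoxd9, with a difference of 0.22 (SE 0.16), Hoxa10 with -0.43 (SE 0.35), Hoxb7 with -0.46 (SE 0.40) and Hoxa6 with -0.66 (SE 0.59). Without the pair Hoxa10 was at -0.17 and Hoxb7 at -0.15. Hoxd9, a gene of the thoracic to lumbar cord, was 23.97, 24.98, 27.1 and 34.3 CPM in the wild type, 22.2, 29.8, 27.3 and 20.03 CPM in heterozygotes and 28.03, 35.6, 32.8 and 31.9 CPM in homozygotes. These groups overlapped. Hoxa6, a gene of forelimb and thoracic levels, was 2.75, 6.97, 4.81 and 2.41 CPM in the wild type, 2.32, 5.19, 4.14 and 1.41 CPM in heterozygotes and 2.48, 5.63, 0.830 and 1.75 CPM in homozygotes. Both mutant ranges lay across that of the wild type.

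Between heterozygotes and wild type Hoxb5, a gene of neck and forelimb levels, had the smallest p. It was 22.6, 32.4, 35.2 and 27.6 CPM in the wild type, 25.9, 18.9, 18.03 and 24.5 CPM in heterozygotes and 24.5, 30.5, 29.1 and 22.9 CPM in homozygotes. Its log2 difference was -0.43 (SE 0.18, 95% interval -0.82 to -0.04, edgeR adjusted p = 0.999). Libraries 1 and 4 of the heterozygotes lay within the wild-type range and libraries 2 and 3 below it. The next members were Hoxb2 at -0.29 (SE 0.20), Hoxb3 at -0.92 (SE 0.72), Hoxb8 at -1.23 (SE 0.98) and Hoxd3 at 0.25 (SE 0.22). Hoxb3 and Hoxd3 are early, anterior members of their clusters. Hoxb3 was 0.490 to 1.39 CPM in the wild type, 0.214 to 1.32 CPM in heterozygotes and 0.624 to 0.989 CPM in homozygotes. Hoxd3 was 10.1 to 12.96, 11.5 to 16.2 and 8.56 to 17.98 CPM in the same order, and Hoxb2 was 12.99 to 17.3, 10.7 to 16.1 and 10.8 to 18.5 CPM. Ranges of the 3 genotypes overlapped for each of these genes.

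Homozygotes against heterozygotes gave the smallest p for Hoxd9, with a log2 difference of 0.37 (SE 0.16, 95% interval 0.02 to 0.72, edgeR adjusted p = 1.00). Hoxb5 at 0.29 (SE 0.18), Hoxb2 at 0.26 (SE 0.20), Hoxc5 at 0.60 (SE 0.52) and Hoxc9 at 0.21 (SE 0.20) followed. Without the pair Hoxc5 was at 1.01 and Hoxc9 at 0.04. Hoxc9, which sets the thoracic motor columns, was 14.2 to 21.0 CPM in the wild type, 10.3 to 19.1 CPM in heterozygotes and 17.2 to 20.7 CPM in homozygotes. Genes of the Hox10 group had intervals of unequal width between homozygotes and wild type. Hoxc10 was at 0.00 (95% interval -0.37 to 0.37), Hoxa10 at -0.43 (-1.21 to 0.34) and Hoxd10 at -0.07 (-2.51 to 2.37), so that a severalfold change of Hoxd10 was not detectable with these libraries.

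**Figure D4:**
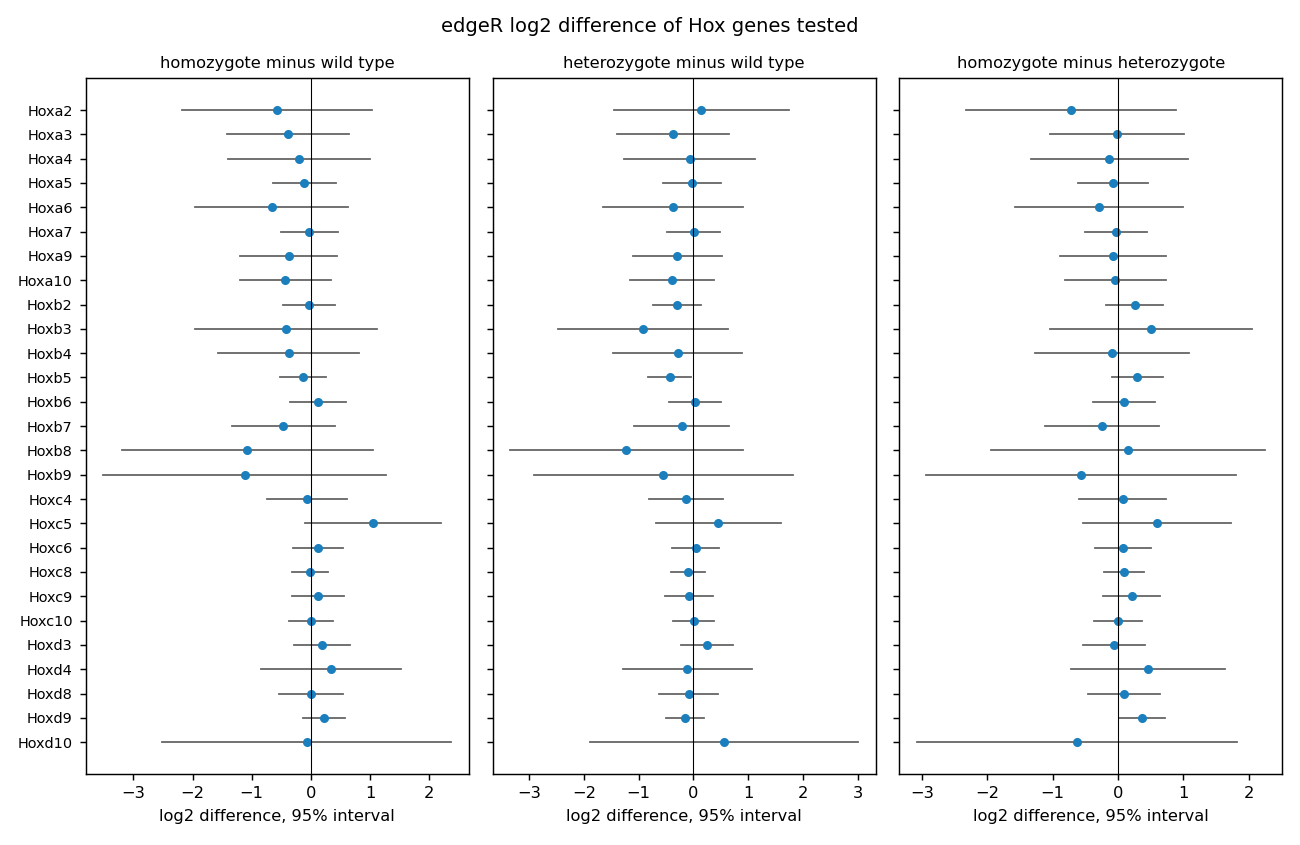
Log2 differences of 27 tested Hox genes in edgeR, with 95% intervals as lines, for each pair of genotypes. Intervals cross 0 for all genes drawn except Hoxb5 between heterozygotes and wild type and Hoxd9 between homozygotes and heterozygotes, and neither passed the adjusted test. Hoxb8, Hoxb9 and Hoxd10 have the widest intervals of those drawn.

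Genes that work with or on the Hox clusters were tested in the same fit, and 0 members of any list below passed at an adjusted p of 0.05 in any comparison. Of 9 TALE cofactors, the Meis, Pbx and Pknox proteins that bind DNA together with Hox proteins, 2 were higher and 7 lower between homozygotes and wild type, none past the test, with a median log2 difference of -0.06. Pbx3 had the smallest p of the list, with 35.5 ± 3.80 CPM (SD, n = 4) in the wild type, 23.2 ± 9.24 in heterozygotes and 20.1 ± 6.98 in homozygotes. It was 10.0 and 13.8 CPM in the pair and 17.8 to 39.4 CPM in the other 10. Meis2 was 84.2 ± 9.54, 54.6 ± 30.5 and 43.8 ± 18.004 CPM in the same order of genotypes, with 10.2 and 17.5 CPM in the pair and 49.3 to 94.3 CPM elsewhere. Every wild-type library of Pbx3 (31.9 to 39.4 CPM) lay above all heterozygous (up to 31.6) and homozygous libraries (up to 30.1). For Meis2 the homozygous libraries (up to 58.5 CPM) lay below the wild type (75.25 or more), and the heterozygotes overlapped it. Groups did not overlap for 3.41% of all genes between homozygotes and wild type and for 3.24% between heterozygotes and wild type. The interneuron markers were also low in the pair, and their part in the result was not tested.

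Chromatin regulators that keep Hox genes off or on gave no call. Of 19 Polycomb genes, 11 were higher and 8 lower between homozygotes and wild type, with a median log2 difference of 0.09. The smallest p values for any genotype difference belonged to Phc2 (58.8 ± 9.21, 70.2 ± 14.95 and 73.4 ± 8.92 CPM from wild type to homozygote) and Ezh2, the methyltransferase, at 2.29 ± 1.17, 1.04 ± 0.80 and 1.79 ± 0.52 CPM. Of 11 trithorax, demethylase and boundary genes, 7 were higher and 4 lower, with a median of 0.10. Kat6a was 5.15 ± 1.33, 4.95 ± 1.26 and 3.44 ± 1.09 CPM, and Dpy30 was 96.1 ± 5.91, 106.5 ± 3.66 and 100.9 ± 11.02 CPM.

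Signals that set Hox domains in the embryo were partly silent at 5 months. Of 14 such genes 9 were tested, and Cdx1, Cdx2 and Cdx4, the caudal factors that open the posterior Hox genes, were at 0 in all 12 libraries. Rxrg, a retinoid receptor, had the smallest p of this list, at 3.92 ± 2.25 CPM in the wild type, 9.39 ± 5.36 in heterozygotes and 11.6 ± 4.25 in homozygotes. It stood at 17.04 and 17.95 CPM in the pair and at 0.760 to 10.3 CPM elsewhere. All homozygous libraries of Rxrg (8.84 CPM or more) lay above the wild type (5.84 or less), and the heterozygotes overlapped it. Such a gap was found for 3.41% of all genes between homozygotes and wild type. Rxrb was 28.1 ± 1.78, 23.5 ± 2.44 and 28.9 ± 5.47 CPM.

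Of 16 motor column and pool genes that act with or after Hox genes, 15 were tested, and 9 were higher and 6 lower between homozygotes and wild type with a median log2 difference of 0.14. Lhx4, a LIM homeodomain factor of motor neurons, had the smallest p, at 7.08 ± 1.08, 11.4 ± 4.65 and 15.7 ± 7.46 CPM from wild type to homozygote. Its values in the pair were 18.2 and 24.7 CPM against 5.76 to 17.9 CPM elsewhere, and the motor neuron marker sum was highest in the same libraries; its part in the result was not tested. Etv1 was 14.4 ± 3.50, 9.05 ± 3.27 and 12.7 ± 3.43 CPM. Foxp1, which Hox proteins switch on in limb motor neurons, was 12.8 ± 4.82, 13.2 ± 4.62 and 14.01 ± 7.75 CPM, and was 19.98 and 23.4 CPM in the pair against 7.26 to 19.8 CPM elsewhere.

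Among 21 cluster neighbours and noncoding RNAs, 17 were in the table and 9 were tested. Hoxb5os was 4.56 ± 0.98, 3.26 ± 0.64 and 3.81 ± 0.28 CPM from wild type to homozygote. Evx1, a homeobox gene beside cluster A that marks a class of spinal interneurons, had 0 counts in both libraries of the pair. The other 10 held 0.560 to 7.16 CPM with a median of 6.69, so Evx1 was at least 158-fold lower in heterozygous library 1 and at least 154-fold lower in homozygous library 1. Evx2, beside cluster D, also had 0 counts in the pair and was 0 to 2.51 CPM elsewhere. Of the brain patterning genes 4 were tested. Dlx2 and Lhx2 stayed at or under 0.723 CPM in every library. Pax6, which also patterns the spinal cord, was detected in all 12, at 4.76 to 8.97 CPM, and Pitx3 was 1.48 and 1.71 CPM in the pair and 0 to 0.743 CPM elsewhere.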

How the data were processed

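Gene expression was measured by RNA-seq in 12 libraries of laser-captured lumbar motor neurons, with the extraction, template-switching amplification and transposase library kits named in the labels' protocols. The authors deposited whole-number read counts for each gene, not normalized. Per the submitters' processing notes, the authors used Trim Galore 0.4.3, HISAT2 2.0.5 and mouse build GRCm38. How reads were counted (program, annotation, strand) is not given in the sources used here. Coordinates are those of the table.

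Genes were kept by filterByExpr in edgeR 4.0.16 (R 4.3.3), scaled by TMM and tested with the quasi-likelihood model over all 12 libraries, with two-sided tests and Benjamini-Hochberg adjustment over 16338 genes. The fits were run on simulated counts with set changes as a check of the code. That simulation held no outlying pair of libraries, and no result here rests on it. Exon lengths came from GENCODE M21, matched by symbol and position for all 39 members. Of these, 18 had the same start and end there. For each gene, the transcript with the longest coding part gave the 3′ UTR. DESeq2 1.42.0, limma-voom with quality weights (limma 3.58.1), other filters and scalings, a replicate block, a covariate and fits without single libraries or the pair were the alternatives.

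The members, gene lists and alternatives were chosen with earlier results of these data known. Named genes were those called, the 5 members with the smallest p in each comparison of 2 genotypes, the 5 highest per kb, groups 10 and 11, and for other lists members called or the 2 with the smallest p. Hoxb9, Hoxa5, Hoxa2, Hoxb6, Foxp1, Evx1, Evx2, Gm20440, Gm20398, Hotair and other members beyond this rule were picked after their values were seen. Some genes of the table are not reported here. Alternatives for the summed Hox level were added after seeing the data.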

Additional observations from a re-analysis of the deposited data

Results flagged for a closer look

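In 89 groups of 4 libraries with any counts, 17 values lay far from the other 3 libraries of their genotype by Dixon's ratio. Of these, 6 belong to members that were not tested and are detected in few libraries, where counts in 1 library set the ratio by themselves. Among tested members 11 of 81 groups were flagged, where chance gives about 1 in 20 groups, or 4.05, and 6 of the 11 were in heterozygous or homozygous library 1.

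Heterozygous library 1 was the outlying sample for Hoxc6 (9.66 CPM, the others 13.9 to 14.3), Hoxc8 (58.4 CPM against 86.8 to 91.6), Hoxd10 (28.9 CPM against 5.77 to 8.30) and Hoxd11 (12.6 CPM against 0). Hoxa11 at 0.0563 CPM and Hoxc11 at 0.0141 CPM rest on 4 counts and 1 count. Homozygous library 1 was the outlying sample for Hoxa9 (43.7 CPM against 104 to 115), Hoxc5 (22.0 CPM against 9.01 to 11.1), Hoxc10 (64.1 CPM against 38.4 to 42.2), Hoxa11 (0.348 CPM against 0) and Hoxd11 (0.116 CPM against 0 to 0.0144).

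In the other libraries, wild-type library 1 was low for Hoxb2 (12.99 CPM against 16.7 to 17.3) and Hoxb4 (0.780 CPM against 1.33 to 1.38). Wild-type library 4 was high for Hoxc6 at 16.6 CPM, against 10.8 to 11.8. Wild-type library 3 alone held Hoxd13, at 0.594 CPM. Heterozygous library 3 was high for Hoxb3 at 1.32 CPM, against 0.214 to 0.352. Homozygous library 3 was high for Hoxc8 at 93.6 CPM, against 83.7 to 84.9.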

How the results depend on the processing

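No Hox gene and no member of the other lists was called in any of the 21 alternative fits, which include DESeq2 and limma-voom; the fit of only the 8 libraries compared has no test for any genotype difference. Of all genes tested, 0 to 13 were called per fit and comparison. Over these fits, 0 to 3 Hox genes had an unadjusted p under 0.05 in each comparison. The numbers over all genes tested ran from 342 of 15621 to 1431 of 16338. None of the 15 log2 differences named for a pair of genotypes changed sign. The share of groups 8 to 11 in the wild type, 59.4% per kb, was 64.2% in CPM with no division by length and 67.9% with the gene's span in place of exon length. Leaving out each wild-type library gave 58.8% to 59.9%, and the summed Hox level stayed at 631 to 693 CPM over the alternatives beside 650.3 CPM.

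Replicate numbers are shared by the genotypes in the labels, but nothing says that they pair libraries. Same-numbered deviations correlated at -0.05 to 0.11 with the wild type. Between mutants they correlated at 0.45 for library 1, the pair described above, and at 0.07 to 0.10 for libraries 2 to 4. Of 8 libraries, 2 correlated best with their own number between homozygotes and wild type. The number was 5 between heterozygotes and wild type and 2 between mutants. With the replicate block, 0 Hox genes were called, 3 rather than 0 had an unadjusted p under 0.05 between homozygotes and wild type, and 3 rather than 1 between heterozygotes and wild type. The counts over all genes went from 787 to 1431 and from 670 to 1157.

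Leaving out 1 library moved many of the named log2 differences by over 1.5 times. Between homozygotes and wild type, Hoxa10 was -0.17 without homozygous library 1 and -0.69 without homozygous library 4, Hoxb7 was -0.15 without homozygous library 1, and Hoxd9 was 0.35 without wild-type library 4. Hoxa6 was -0.31 without wild-type library 2, -1.32 without homozygous library 2 and -0.36 without homozygous library 3. Between heterozygotes and wild type, Hoxb3 was -1.89 without heterozygous library 3, Hoxd3 was 0.16 without heterozygous library 2, and Hoxb8 was -0.82 without heterozygous library 1, -1.89 without heterozygous library 2 and -2.31 with the replicate block. Between homozygotes and heterozygotes, Hoxb2 was 0.40 and 0.16 without homozygous libraries 1 and 3, Hoxc9 was 0.04 without heterozygous library 1, and Hoxc5 was 1.37, 0.30 and 0.24 without heterozygous library 1, heterozygous library 2 and homozygous library 1. With genes detected as a covariate, Hoxa10, Hoxb7 and Hoxc5 between homozygotes and wild type were -0.15, -0.08 and 0.40, and Hoxb2 between heterozygotes and wild type was -0.17. In limma-voom, Hoxc5 and Hoxc9 between homozygotes and heterozygotes were 1.07 and 0.11. The cause of these moves was not tested. Members with few counts, such as Hoxd11, could not be tested after the filter.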
